A study of Mus musculus with 75 samples.

Results

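The genes described are 10 members of the matricellular protein family and of the thrombospondin family, namely Thbs1, Thbs2, Thbs3, Thbs4, Comp, Tnc, Postn, Sparc, Cthrc1 and Fn1. They were taken by gene symbol from a count table of 55536 genes in mouse lung, and all 10 passed the filter on low counts that left 16221 genes for testing. The lungs came from 75 male C57BL/6JRj mice with no transgene, each giving 1 library from the inferior lobe. There were 10 control mice (CTRL) and 65 mice given bleomycin (BLEO-IPF), a drug that injures the alveolar epithelium and is used to model idiopathic pulmonary fibrosis. Bleomycin was instilled into the trachea once, at an age of 12 to 14 weeks, and separate mice were examined on day 7 (n = 10), on days 14, 21, 28 and 35 (n = 12 each) and on day 42 (n = 7). The sample labels describe the controls as saline mice, while the treatment notes describe them as untreated. BLEO-IPF mice entered the groups only if they had lost 5% to 17% of body weight by day 6, so both very mild and very severe responders were left out, and the later groups hold mice that lived to those days.

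Matricellular proteins are secreted into the extracellular matrix, where most of them tune how cells attach to, sense and remodel the matrix rather than bearing load themselves. Thrombospondins are large calcium-binding glycoproteins: Thbs1 and Thbs2 form trimers that carry type 1 repeats, and Thbs1 can release active TGFβ from its latent complex, whereas Thbs3, Thbs4 and Comp form pentamers without these repeats and are best known from cartilage, tendon and muscle. Tenascin-C (Tnc) is laid down during development and wound repair, periostin (Postn) binds collagen and integrins, Sparc is a collagen-binding glycoprotein, Cthrc1 is a secreted protein of activated fibroblasts, and fibronectin (Fn1) is the provisional matrix glycoprotein onto which collagen is deposited. In fibrotic lung these proteins are made largely by fibroblasts and myofibroblasts, with further Fn1, Thbs1 and Sparc from macrophages, platelets, endothelium or epithelium.

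On the GRCm38 build the 10 genes lie apart from each other, with Thbs3 and Postn on the same chromosome. Thbs1 (ENSMUSG00000040152) spans chr2:118111876-118127133 on the plus strand, Thbs2 (ENSMUSG00000023885) chr17:14665500-14694235 on the minus strand, Thbs3 (ENSMUSG00000028047) chr3:89215180-89226837 on the plus strand, Thbs4 (ENSMUSG00000021702) chr13:92751590-92794818 on the minus strand and Comp (ENSMUSG00000031849) chr8:70373558-70382066 on the plus strand. Tnc (ENSMUSG00000028364) spans chr4:63959785-64047015 on the minus strand, Postn (ENSMUSG00000027750) chr3:54361109-54391037 on the plus strand, Sparc (ENSMUSG00000018593) chr11:55394500-55423183 on the minus strand, Cthrc1 (ENSMUSG00000054196) chr15:39076932-39087121 on the plus strand and Fn1 (ENSMUSG00000026193) chr1:71585520-71653200 on the minus strand. The coding sequences of the 5 thrombospondins fell into the 2 known subgroups. Thbs1 and Thbs2, of 1171 and 1172 codons, shared 65.3% of aligned bases, and Thbs3, Thbs4 and Comp, of 956, 963 and 755 codons, shared 63.5% to 67.6% with each other. Between the subgroups the identity was 52.1% to 58.7%. No thrombospondin shared a 75-base window with another gene of the family, so reads of the sequenced length could be told apart between them. Thbs3 overlapped Mtx1, a mitochondrial import gene on the opposite strand, by 318 bp of exon, and 2.48% of its 75-base windows also occurred in Mtx1. Thbs1, Tnc and Fn1 shared at most 1.5% of their windows with other genes and the remaining members none.

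RefSeq promoters of the GRCm38.p6 assembly were matched for 6 of the 10 members, with 8 start sites in all, and the 250 bases before the start are shown for 5 of them because these genes cover the range of responses: a very large rise (Thbs4), rises of Tnc and Thbs2, a transient fall (Thbs3) and an almost flat course (Postn). Capitals mark matches, on either strand, to the SMAD element CAGAC, the TEAD element GGAATG, the AP-1 element TGANTCA, the CArG box bound by serum response factor and the TATA sequence TATAAA. Sequences run 5′ to 3′ along the gene.
Thbs4, chr13:92794819-92795068, minus strand: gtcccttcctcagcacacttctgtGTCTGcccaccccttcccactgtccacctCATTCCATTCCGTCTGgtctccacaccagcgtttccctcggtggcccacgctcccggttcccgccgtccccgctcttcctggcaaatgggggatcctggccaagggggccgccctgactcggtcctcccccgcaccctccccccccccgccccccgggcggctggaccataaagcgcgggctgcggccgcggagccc
Tnc, chr4:64047016-64047265, minus strand: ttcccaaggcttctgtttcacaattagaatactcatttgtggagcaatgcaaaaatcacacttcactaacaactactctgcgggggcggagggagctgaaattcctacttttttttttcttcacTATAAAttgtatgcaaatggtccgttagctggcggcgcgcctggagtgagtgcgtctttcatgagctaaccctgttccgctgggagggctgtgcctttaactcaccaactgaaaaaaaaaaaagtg
Thbs2, chr17:14694263-14694512, minus strand: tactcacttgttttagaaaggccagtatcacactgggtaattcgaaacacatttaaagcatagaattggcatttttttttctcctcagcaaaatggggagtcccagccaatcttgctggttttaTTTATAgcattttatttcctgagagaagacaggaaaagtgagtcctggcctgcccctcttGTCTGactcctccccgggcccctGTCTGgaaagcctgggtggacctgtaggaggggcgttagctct
Thbs3, chr3:89214930-89215179, plus strand: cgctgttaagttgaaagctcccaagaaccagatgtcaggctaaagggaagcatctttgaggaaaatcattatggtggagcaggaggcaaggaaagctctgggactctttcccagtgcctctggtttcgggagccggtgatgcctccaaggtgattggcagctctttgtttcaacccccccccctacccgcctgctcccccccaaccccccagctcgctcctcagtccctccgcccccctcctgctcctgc
Postn, chr3:54360857-54361106, plus strand: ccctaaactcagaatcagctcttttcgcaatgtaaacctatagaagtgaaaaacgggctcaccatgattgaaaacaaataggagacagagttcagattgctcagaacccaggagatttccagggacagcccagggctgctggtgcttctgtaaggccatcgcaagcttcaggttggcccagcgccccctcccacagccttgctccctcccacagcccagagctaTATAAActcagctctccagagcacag
The Thbs4 window held 2 matches to the TEAD element that overlapped by 1 base, at -197 and -192 relative to the start, directly followed by 1 of its 2 SMAD matches at -186. A TEAD match occurred in 12.6% and a SMAD match in 42.2% of the 32851 mouse promoter windows of the same length. The Thbs2 window held 2 SMAD matches at -66 and -43 and a TATA match on the other strand at -126. The Tnc window had a TATA match at -126 and the Postn window 1 at -26, a motif found in 12.4% of all windows. Tnc and Postn each have another matched start site whose window is not shown, with a SMAD match at -70 for Tnc, beside a TATA match, and at -191 for Postn. No match to any of the 5 motifs was found in the Thbs3 window. The AP-1 element and the CArG box, present in 6.75% and 1.47% of all windows, were found in none of the 8 member windows. These matches describe letters in the window only.

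Libraries held 9240291 to 14665247 counts, with group medians between 10231079 and 11267629.5, which put a CPM of 1 near 10 counts. Each level below is given as CPM, the count relative to the size of its library after TMM scaling. Changes are log2 fold changes with standard errors from the edgeR quasi-likelihood test over all 75 mice, and a gene is called changed where its Benjamini-Hochberg adjusted p over the 16221 genes was under 0.05. All days were compared with the same 10 CTRL mice, so their values against CTRL share the error of that group. In RNA from whole tissue, fewer cells of a type and less RNA per cell cannot be told apart. A day 28 library, replicate 10, stood apart by its cardiac and skeletal muscle genes, which summed to 2445 CPM against at most 677 in the other 74 libraries. Without it the same number of members, 8, was called on day 28.

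Most of the 10 members were higher after bleomycin from day 14 to day 42, and the count of called members was highest on day 14. On day 7, 5 members were higher and 1 was lower than in CTRL, where 45.8% of all genes tested were called, 24.8% higher and 21% lower. On day 14 all 10 members were called, 9 higher and Thbs3 lower, against 62.4% of all genes, 32.4% higher and 29.9% lower. On day 21, 9 members were higher, where 54.2% of genes were called and 28.3% were higher. Days 28 and 35 had 8 members higher, where 43.3% and 29.9% of genes were called and 24.1% and 16.9% were higher. By day 42 it was 6 members, where 24.7% of genes were called and 13.7% were higher. The median log2 fold change of the 10 members was 0.84, 2.49, 2.35, 2.21, 1.47 and 0.98 from day 7 to day 42, while the median over all genes tested stayed between -0.01 and 0.02. Thbs1, Thbs4, Tnc, Sparc and Fn1 were higher on all 6 days, as were 8.33% of all genes tested. The levels of every BLEO-IPF mouse lay above those of every CTRL mouse for 4 members on day 7, where this held for 7.39% of genes, for 7 on day 14 (9.46%), for 6 on day 21 (6.84%), and for 4 on each of days 28 (2.1%), 35 (2.43%) and 42 (4.22%).

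**Figure D1:**
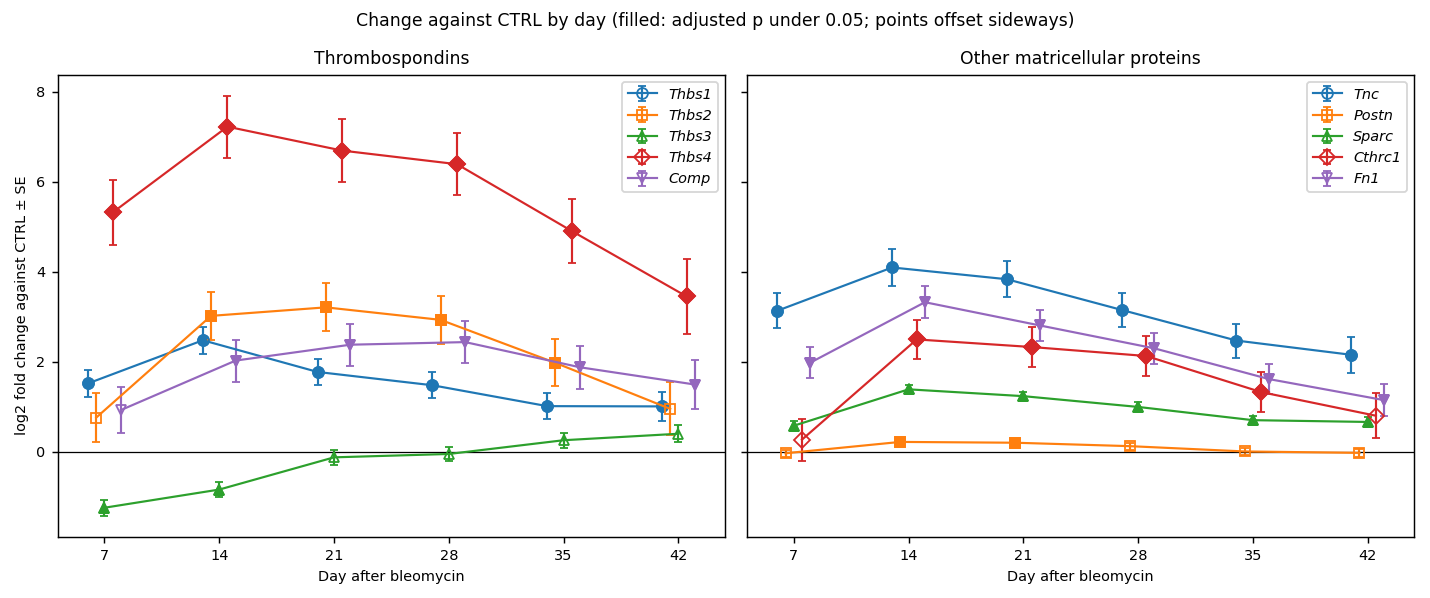
Log2 fold change against CTRL (vertical axis, with SE bars from the edgeR fit) by day after bleomycin (horizontal axis) for the 5 thrombospondins on the left and the other 5 genes on the right. Filled symbols passed the adjusted p threshold; Thbs4 stood highest on every day, at 7.23 on day 14, Thbs3 was called below 0 on days 7 and 14, and Postn stayed between -0.03 and 0.22.

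Thbs1, which activates latent TGFβ and binds CD36 and CD47, rose early and stayed raised. In CTRL lungs the lowest, median and highest Thbs1 levels were 141, 205 and 383 CPM, and in BLEO-IPF lungs they were 359, 724 and 948 on day 7 and 538, 881 and 3344 on day 14. On day 21 they were 329, 666 and 1494, then 225, 587 and 1296 on day 28, 304, 435 and 768 in the day 35 group and 389, 420.3 and 733 CPM by day 42. A total of 9 of 10 mice on day 7, all 12 on day 14, 11 on day 21, 9 each on days 28 and 35 and all 7 on day 42 were above the highest CTRL mouse. Thbs1 was 2.87-fold higher on day 7 (log2 fold change 1.52 ± 0.30, adjusted p = 2.25e-05) and 5.57-fold higher on day 14 (2.48 ± 0.30, adjusted p = 9.36e-11). It was still 2.01-fold higher on day 42 (1.01 ± 0.32, adjusted p = 0.0146). Replicates 8 and 1 of day 14 stood apart at 3344 and 3088 CPM, with the next mouse at 1742. The highest CTRL mouse was 2.71 times the lowest, a wider spread than for the other members except Thbs4 and Comp.

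Thbs2, the other trimeric thrombospondin and an inhibitor of angiogenesis, was first called on day 14. The lowest, median and highest Thbs2 levels in CTRL were 4.3, 5.23 and 7.19 CPM, against 6.25, 8.48 and 14.1 on day 7 and 12.7, 43.2 and 66.4 on day 14. Day 21 had levels of 8.43, 28.2 and 159, then 4.77, 15.4 and 126 on day 28, 6.47, 10.4 and 89.6 in the day 35 group and 3.09, 8.1 and 29.3 CPM by day 42. On day 7 the mice partly overlapped with CTRL, with 7 of 10 above all CTRL mice. The gene was not called on that day (log2 fold change 0.76 ± 0.55, adjusted p = 0.255). With only CTRL and day 7 in the fit it was called, at 0.75. All 12 mice exceeded every CTRL mouse on days 14 and 21, where Thbs2 was 8.12-fold (3.02 ± 0.53, adjusted p = 1.26e-06) and 9.25-fold higher (3.21 ± 0.53, adjusted p = 6.10e-07). Levels on day 28 ran from below the CTRL median to 126 CPM, and the mean remained 7.63-fold higher (2.93 ± 0.53, adjusted p = 7.19e-06). By day 42 the median mouse stood just above the highest CTRL mouse, 1 mouse was below all of them, and the gene was not called (0.95 ± 0.59, adjusted p = 0.237). The edgeR test of day 14 against day 7 gave 2.26 ± 0.50 for Thbs2 (adjusted p = 0.00101) and 0.96 ± 0.28 for Thbs1 (adjusted p = 0.0125).

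Thbs3, a pentameric thrombospondin of skeletal tissues whose promoter window is shown above, was the member that fell. Thbs3 was at 76.9, 116 and 128 CPM in the lowest, median and highest CTRL mouse, and at 28.9, 47.3 and 60.2 on day 7 and 36.5, 59 and 110.2 on day 14. These levels were 51.1, 104 and 151 on day 21, then 51.2, 106 and 162 on day 28, 88.2, 138 and 160.1 in the day 35 group and 105, 146 and 176 CPM by day 42. All 10 mice on day 7 were below the lowest CTRL mouse, as for 3.8% of genes tested on that day, and 10 of 12 were below it on day 14. On days 21 and 28 mice lay on both sides of the CTRL range, and on day 42, 6 of 7 were above it. Thbs3 was 2.37-fold lower on day 7 (log2 fold change -1.24 ± 0.17, adjusted p = 2.00e-08) and 1.79-fold lower on day 14 (-0.84 ± 0.16, adjusted p = 9.03e-06). The differences on days 35 and 42 were 0.26 ± 0.16 and 0.40 ± 0.18 and were not called (adjusted p = 0.238 and 0.102). Between days 14 and 21 it was the only member called, higher by 0.72 ± 0.16 on the log2 scale (adjusted p = 0.0143), in a comparison that called 1.03% of genes. Without day 14 replicate 8 this was 0.69 (adjusted p = 0.0585). Mtx1, which overlaps it, held 23.8% as many counts and went the other way on day 7, with a log2 fold change of 0.39 ± 0.07 (adjusted p = 1.09e-05), and on day 14 it was 0.36 ± 0.07 (adjusted p = 7.40e-06). Whether the authors' counting used strand is not given in the sources used here.

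Thbs4, a pentameric thrombospondin of tendon and muscle that is also made by cells responding to injury, showed the largest change of the 10. Levels of Thbs4 in the lowest, median and highest CTRL mouse were only 0.0795, 0.367 and 0.719 CPM, compared with 9.7, 14.5 and 32.2 on day 7 and 18.3, 64.9 and 99.7 on day 14. It then stood at 9.18, 38.1 and 79.8 on day 21, then 3.08, 19.7 and 94.9 on day 28, 1.49, 6.37 and 27.4 in the day 35 group and 0.858, 2.78 and 11.7 CPM by day 42. Every BLEO-IPF mouse on every day exceeded every CTRL mouse. CTRL libraries held 1 to 8 counts of Thbs4, and 4 of the 10 held no more than 3, so the size of each fold rests on very few control counts. The fitted increase was 39.9-fold on day 7 (log2 fold change 5.32 ± 0.72, adjusted p = 8.61e-09), 149.7-fold on day 14 (7.23 ± 0.69, adjusted p = 4.82e-14) and 84-fold on day 28 (6.39 ± 0.69, adjusted p = 2.96e-11). Day 35 stood at 4.91 ± 0.72 (adjusted p = 1.76e-07) and day 42 at 3.45 ± 0.84 (adjusted p = 0.00155). From day 14 to day 42 it fell by 3.77 ± 0.59 on the log2 scale (adjusted p = 1.08e-06), the largest decline among the members. Tendon markers summed to 6.04 CPM in the median CTRL mouse and 10.2 on day 14, where Scx was 1 of 2 tested genes and was higher. Tnmd, the marker that defines tendon cells, was at 0 counts in the median of all 75 mice.

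Comp, the cartilage oligomeric matrix protein, had the lowest level of the 10, also per length. CTRL mice had 0, 0.232 and 0.834 CPM of Comp (lowest, median and highest), and BLEO-IPF mice had 0.088, 0.369 and 1.53 on day 7 and 0.764, 1.03 and 2.1 on day 14. For the later groups the values were 0.818, 1.2 and 2.73 on day 21, then 0.289, 1.02 and 4.9 on day 28, 0.282, 0.86 and 2.5 in the day 35 group and 0.257, 0.431 and 2.51 CPM by day 42. These correspond to 0 to 8 counts per CTRL library and 8 to 21 on day 14. Of the BLEO-IPF mice, 2 of day 7, 9 of day 14, 11 of day 21, 8 of day 28, 6 of day 35 and 2 of day 42 were above every CTRL mouse, so the groups overlapped on all days. Comp was not called on day 7 (log2 fold change 0.93 ± 0.52, adjusted p = 0.136) and was 4.08-fold higher on day 14 (2.03 ± 0.47, adjusted p = 0.000146). Days 21 and 28 were at 2.38 ± 0.46 (adjusted p = 1.38e-05) and 2.44 ± 0.46 (adjusted p = 1.83e-05). The day 42 value of 1.495 ± 0.54 (adjusted p = 0.0336) lost its call without day 42 replicate 7, the highest mouse of that day, when it was 0.93 (adjusted p = 0.246). It was also lost without day 42 replicate 3 or any of 5 CTRL mice (adjusted p from 0.0504 to 0.0743). Day 28 replicate 10, the library high in muscle genes, held the second highest Comp level of its day, and without it the day 28 difference was 2.21 (adjusted p = 7.69e-05). Of 8 cartilage markers, Acan, Col9a1, Matn1 and Snorc were at 0 counts in the median of all 75 mice. The summed level of the list went from 17 CPM in the median CTRL mouse to 7.44 on day 14. Most of this sum was Chad, whose median went from 14.1 to 2.58 CPM, while Col11a2 went from 2.38 to 3.23 CPM, and of the 2 markers tested 1 was higher and 1 lower on day 14.

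**Figure D2:**
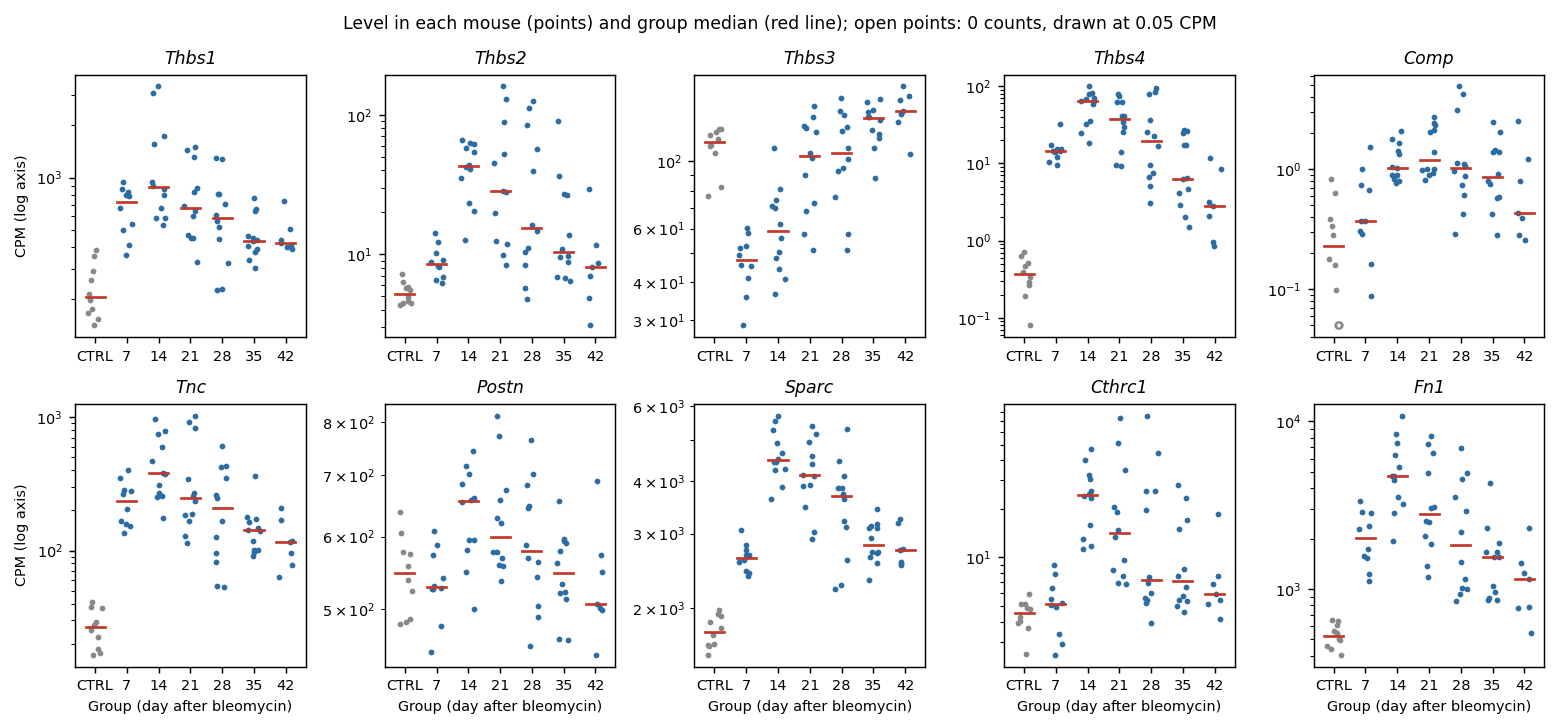
Level of each gene (vertical log axis, CPM) in each of the 75 mice (points) by group (horizontal axis), with the group median as a red line; open points mark 2 CTRL libraries with 0 counts of Comp, drawn at 0.05 CPM. All BLEO-IPF points of Thbs4, Tnc and Sparc lie above the CTRL points, Thbs3 dips on days 7 and 14, and Thbs2, Thbs4 and Cthrc1 spread widely from day 21 on.

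Tnc, tenascin-C, was higher from day 7 through day 42. Its lowest, median and highest levels were 16.5, 26.6 and 40.9 CPM in CTRL, 134, 236 and 400.0 on day 7 and 175, 379.9 and 970.2 on day 14. Thereafter they were 114, 248 and 1029 on day 21, then 52.9, 207 and 614 on day 28, 91.5, 141 and 361 in the day 35 group and 63, 116 and 209 CPM by day 42. Every BLEO-IPF mouse of all 6 days was above every CTRL mouse. Tnc was 8.78-fold higher on day 7 (log2 fold change 3.13 ± 0.39, adjusted p = 1.32e-09), 17.1-fold on day 14 (4.10 ± 0.40, adjusted p = 1.27e-13) and 14.3-fold on day 21 (3.84 ± 0.40, adjusted p = 1.88e-12). On day 42 it was 4.45-fold higher (2.16 ± 0.40, adjusted p = 4.62e-05). The day 21 group held 3 mice, replicates 5, 10 and 3, at 1029, 921 and 827 CPM, while the next mouse was at 343.

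Fn1, fibronectin, rose strongly in every group of BLEO-IPF mice. For Fn1 the lowest, median and highest CTRL mouse had 405, 522 and 654 CPM, and the BLEO-IPF mice had 1116, 2012 and 3350.0 on day 7 and 1944, 4725 and 10834 on day 14. Later groups had 1185, 2783 and 8210.0 on day 21, then 842, 1823 and 6904 on day 28, 858, 1544 and 4306 in the day 35 group and 549, 1153 and 2314 CPM by day 42. Every BLEO-IPF mouse up to day 35 was above the CTRL range, as were 6 of 7 on day 42. Fn1 was 3.94-fold higher on day 7 (log2 fold change 1.98 ± 0.34, adjusted p = 2.97e-06) and 10-fold higher on day 14 (3.32 ± 0.36, adjusted p = 2.44e-12). It stood at 2.30 ± 0.34 on day 28 (adjusted p = 1.44e-07) and 1.15 ± 0.36 on day 42 (adjusted p = 0.0154). The day 42 call was lost without replicate 7 of that day, the highest of the 7 mice, when the difference was 0.89 (adjusted p = 0.0780). Counts per gene do not separate the plasma form of fibronectin from the cellular forms that carry extra domains.

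Sparc, the collagen-binding glycoprotein also called osteonectin, was the most abundant member in CTRL lung, also per length, and changed evenly from mouse to mouse. The CTRL levels were 1551, 1756 and 1974 CPM (lowest, median and highest mouse), rising to 2379.5, 2629.9 and 3054 on day 7 and 3615, 4467 and 5702 on day 14. Sparc stood at 2907, 4118 and 5384 on day 21, then 2214, 3673 and 5289 on day 28, 2326, 2820.4 and 3428 in the day 35 group and 2521, 2749 and 3241 CPM by day 42. The CTRL and BLEO-IPF mice did not overlap on any day, although the changes were moderate. Sparc was 1.49-fold higher on day 7 (log2 fold change 0.58 ± 0.10, adjusted p = 5.03e-06) and 2.62-fold on day 14 (1.39 ± 0.10, adjusted p = 1.90e-18). It was 2.0-fold higher on day 28 (0.997 ± 0.10, adjusted p = 3.88e-12) and 1.58-fold on day 42 (0.66 ± 0.11, adjusted p = 8.30e-06).

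Cthrc1, a secreted protein that marks collagen-producing fibroblasts of fibrotic lung, was close to its CTRL level on day 7 and high on day 14. Cthrc1 ranged over 2.51, 4.53 and 5.94 CPM (lowest, median and highest mouse) in CTRL, 2.5, 5.16 and 8.95 on day 7 and 11.2, 24.3 and 46.6 on day 14. After that it was at 6.85, 14.1 and 73.3 on day 21, then 3.91, 7.27 and 75.5 on day 28, 4.6, 7.11 and 28.2 in the day 35 group and 4.17, 5.95 and 18.5 CPM by day 42. On day 7 the ranges overlapped and the gene was not called (log2 fold change 0.27 ± 0.47, adjusted p = 0.661), with a 95% interval of -0.64 to 1.18. On day 14 all 12 mice were above CTRL and Cthrc1 was 5.65-fold higher (2.497 ± 0.44, adjusted p = 1.35e-06). Days 21, 28 and 35 were at 2.33 ± 0.44, 2.13 ± 0.44 and 1.33 ± 0.44 (adjusted p = 7.63e-06, 6.33e-05 and 0.0154). On day 42, 4 of 7 mice were above the CTRL range and the gene was not called (0.80 ± 0.50, adjusted p = 0.238). The step from day 7 to day 14 was 2.23 ± 0.43 (adjusted p = 0.000203).

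Postn, periostin, hardly moved although its CTRL level per length was the second highest of the 10. Postn levels of the lowest, median and highest mouse were 482, 547 and 638 CPM in CTRL, 448, 529 and 608 on day 7 and 501, 656 and 743 on day 14. They stood at 537, 599 and 813 on day 21, then 456, 578 and 764 on day 28, 463, 547 and 657 in the day 35 group and 446, 506 and 689.6 CPM by day 42. The BLEO-IPF ranges overlapped with CTRL on every day. Postn was 1.16-fold higher on day 14 (log2 fold change 0.22 ± 0.08, adjusted p = 0.0105) and 1.15-fold on day 21 (0.20 ± 0.08, adjusted p = 0.0219). The day 21 call was lost without replicate 1, 3 or 10 of that day, with adjusted p between 0.0538 and 0.0653. On the other 4 days the difference lay between -0.03 and 0.12 and was not called, and the 95% intervals together ran from -0.20 to 0.27.

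The course over time had the same steps for most members. From day 7 to day 14, 8 of the 10 were higher, in a comparison that called 17% of genes, 9.48% higher. The split of all calls in that comparison depended on the scaling, with 1538 of 2763 calls higher after TMM scaling, 1202 of 2833 with the library size alone and 1302 of 2845 with upper quartile factors. Comp and Thbs3 were the 2 that were not called, at 1.10 ± 0.42 (adjusted p = 0.0604) and 0.40 ± 0.17 (adjusted p = 0.0812). The Tnc call of this step, at 0.96 ± 0.35 (adjusted p = 0.045), was lost without replicate 1, 3, 4, 7 or 8 of day 14 or replicate 3, 5, 6, 7 or 9 of day 7, with adjusted p between 0.0512 and 0.109. Thbs1 lost its call without day 14 replicate 8 (adjusted p = 0.0549), and Comp gained one without replicate 2 or 4 of day 7 or replicate 4 of day 28 (adjusted p between 0.0197 and 0.0485). No member was called between days 21 and 28, 28 and 35, or 35 and 42, comparisons that called 0.727%, 1.27% and 0% of genes by edgeR. At an unadjusted p under 0.05 these steps held 2, 6 and 1 of the 10 members, and DESeq2 called 0, 1 and 0. Of all genes, 957 had an unadjusted p under 0.05 between days 35 and 42, and DESeq2 called 0. Between days 28 and 35 the Thbs4 value of -1.49 ± 0.42 (adjusted p = 0.0542) passed on leaving out any 1 of 11 libraries, namely replicates 3, 7, 8, 11 and 12 of day 28, replicates 5, 6, 7 and 9 of day 35, and replicate 8 of day 14 or day 21 (adjusted p between 0.0240 and 0.0483). Sparc, at -0.29 ± 0.09 (adjusted p = 0.0945), passed without day 28 replicate 8 (0.0355) or 11 (0.0240). The split of calls between days 21 and 28 was 67 of 118 higher after TMM scaling and 66 of 97 with the library size alone. From day 14 to day 42, 8 members were lower and Thbs3 was higher, where 34% of genes were called, 15.2% higher and 18.8% lower. The Postn call was lost without day 42 replicate 3 (adjusted p = 0.0720) or day 14 replicate 4 (0.05004). The falls ranged from 0.24 ± 0.09 for Postn (adjusted p = 0.0217) to 3.77 ± 0.59 for Thbs4, with Fn1 at -2.18 ± 0.39 (adjusted p = 1.40e-05). Comp was the member without a call, at -0.53 ± 0.45 (adjusted p = 0.376, 95% interval -1.42 to 0.36).

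The order of the mean log2 levels differed between members. Day 14 was highest for Thbs1, Thbs2, Thbs4, Tnc, Postn, Sparc, Cthrc1 and Fn1, day 21 for Comp and day 42 for Thbs3. The log2 fold changes of the edgeR fit ranked 2 of these otherwise. That of Thbs2 was larger on day 21 than on day 14 (3.21 against 3.02), and that of Comp larger on day 28 than on day 21 (2.44 against 2.38). For none of the first 8 was day 14 called against the next highest day, which was day 21 in each, by edgeR. For Thbs1 the order below these was day 7, day 28, day 42, day 35 and CTRL, with CTRL apart from its neighbour (adjusted p = 0.00398). The order for Sparc was day 14, 21, 28, 35, 42, 7 and CTRL, and the lowest neighbours, day 7 and CTRL, differed (adjusted p = 5.03e-06). In Thbs3 the order ran the other way at its low end, where day 21 stood above day 14 (adjusted p = 0.0143) and day 14 above day 7 without a call. CTRL also stood apart from day 42, its neighbour, for Thbs4 (adjusted p = 0.00155), Tnc (adjusted p = 4.62e-05) and Fn1 (adjusted p = 0.0154). For Thbs2, Cthrc1, Comp and Postn no pair of neighbours was called, although distant days were. The unadjusted edgeR p was 0.034 for Thbs2 between days 28 and 35 and 0.016 between days 35 and 7. For Cthrc1 it was 0.039 between days 28 and 35.

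Compared per kilobase of exon, so that genes of different length can be ranked, Sparc was highest in every group and Comp lowest. In CTRL lung the mean levels per kb were 465.9 ± 39.7 CPM for Sparc (SD, n = 10), 62.8 ± 6.18 for Postn, 45.5 ± 7.33 for Fn1, 38.5 ± 14 for Thbs1 and 23 ± 3.76 for Thbs3. The other 5 were lower, from 3.5 ± 1.16 for Tnc and 2.78 ± 0.603 for Cthrc1 to 0.762 ± 0.135 for Thbs2, 0.118 ± 0.0599 for Thbs4 and 0.0979 ± 0.091 for Comp. On day 14 Fn1 reached 455 ± 219 and Thbs1 214 ± 159.9 CPM per kb (SD, n = 12), both above Postn at 73.1 ± 8.39. Thbs4 moved from rank 9 in CTRL to rank 6 on day 14, at 17.8 ± 7.67, above Thbs3 at 12.9 ± 4.32. By day 42 it was back at rank 9, and the order of all members was that of CTRL except that Fn1 and Thbs1 remained above Postn. Per kb of the longest transcript Thbs1 was below Postn on days 28, 35 and 42, at 80.4 against 103 CPM per kb on day 42, and Thbs4 was at rank 7 on day 14.

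**Figure D3:**
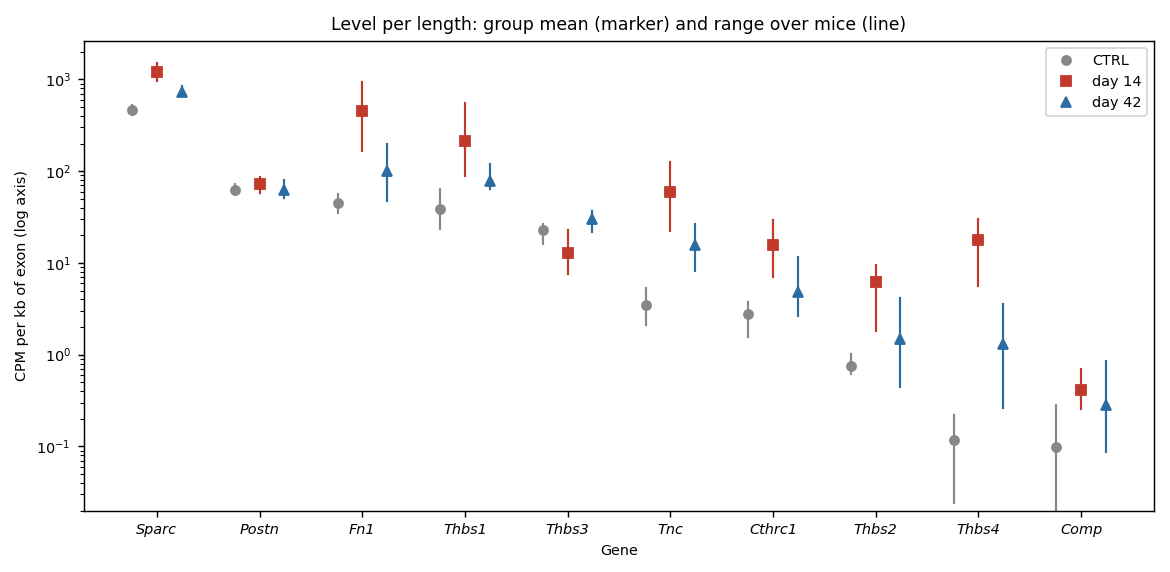
Mean level per kb of exon (vertical log axis, CPM per kb) of the 10 genes (horizontal axis, in CTRL order) in CTRL (circles, n = 10), on day 14 (squares, n = 12) and on day 42 (triangles, n = 7), with lines from the lowest to the highest mouse; the Comp line of CTRL runs to the lower edge because 2 libraries held 0 counts. Thbs4 rose from the 9th to the 6th place on day 14, Fn1 and Thbs1 passed Postn, and Sparc stayed first.

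Mice of the same day differed widely, and they did so in concert for several members. Over the 75 mice, after each group's mean log2 level was subtracted, 36 of the 45 pairs of members were positively correlated and the median r was 0.48. How often pairs of other genes correlate in this way was not tested, so this is not shown to be particular to the members. The closest pairs were Tnc and Fn1 (r = 0.91, rho = 0.90), Thbs2 and Cthrc1 (r = 0.90, rho = 0.86), Thbs2 and Fn1 (r = 0.88, rho = 0.84), Thbs2 and Thbs4 (r = 0.82, rho = 0.79) and Thbs1 and Tnc (r = 0.82, rho = 0.78). Each had a two-sided permutation p of 1e-05, the smallest that the 100000 permutations within groups can give, and an adjusted p over the 45 pairs of 2.4e-05, and 2.2e-05 for rho. Without the 2 mice farthest from the median of the first gene, these 5 correlations were 0.90, 0.88, 0.86, 0.80 and 0.82. All 9 negative pairs involved Thbs3, from -0.22 with Comp (rho = -0.20) to -0.55 with Thbs2 (rho = -0.46, permutation adjusted p = 4.1e-05 for r and 0.000488 for rho). By r the pair with Comp did not pass (permutation adjusted p = 0.0738), and the other 8 did. By rho the pairs with Comp, Tnc, Sparc and Postn did not pass (permutation adjusted p = 0.0940, 0.0527, 0.0664 and 0.149). Without the 2 mice farthest from the Thbs3 median, r was -0.28 with Tnc and -0.18 with Postn.

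These relations were not the same in every group. In CTRL mice Thbs2 and Cthrc1 had r = 0.02 and Thbs2 and Fn1 r = -0.18, while on day 21 the values were 0.99 and 0.94, and on day 28 0.94 and 0.89 (n = 10 in CTRL and 12 on each day). Thbs3 and Thbs1 had r = 0.73 in CTRL and -0.87 on day 21. The 9 pairs with Thbs3 lay between -0.92 and -0.63 on day 21, while on day 7 they were negative with Thbs1 and Fn1 and positive with the other 7. On day 42 (n = 7) all 9 were positive, from 0.03 with Thbs1 to 0.72 with Thbs2. On day 28 the 4 highest mice were replicates 5, 4, 1 and 9, in this order, for Thbs2, Thbs4 and Cthrc1, and on day 21 they were replicates 10, 5, 3 and 1 for Thbs2, Thbs4 and Fn1. The lowest Thbs3 level of day 28 was in replicate 1 and that of day 21 in replicate 10, mice that were each among the 4 highest of their day for the other members except Comp. On day 42 replicate 7 was highest for Thbs2, Thbs4, Comp, Sparc, Cthrc1 and Fn1, and replicate 4 lowest for Thbs1, Thbs2, Thbs3, Thbs4, Comp, Tnc and Fn1. All pairs come from the same libraries and share their scaling.

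**Figure D4:**
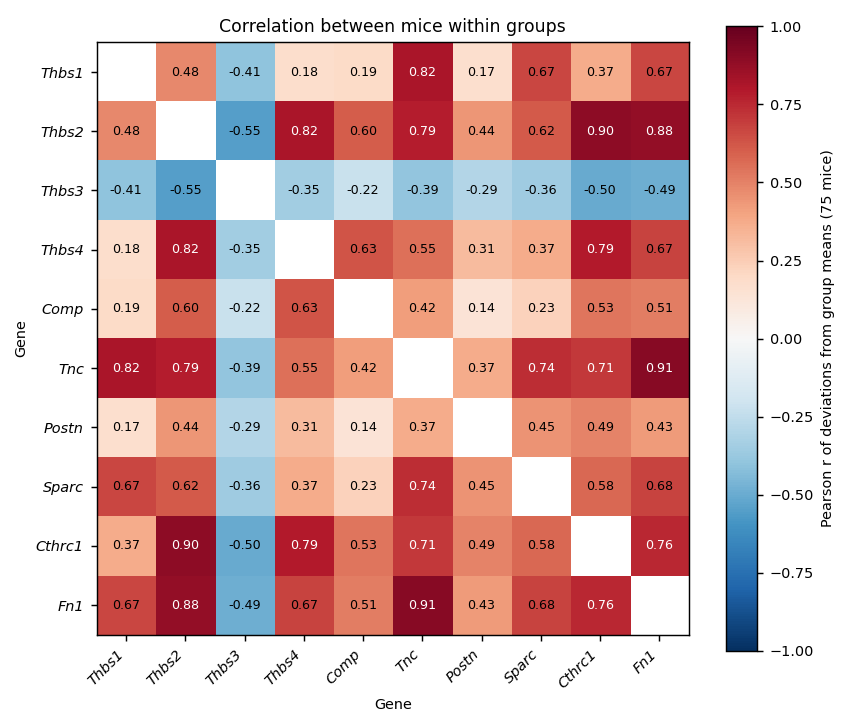
Pearson r between each pair of the 10 genes over 75 mice after subtraction of group means, with genes on both axes and colour from -1 (blue) to 1 (red). The values reach 0.91 for Tnc and Fn1 and 0.90 for Thbs2 and Cthrc1, and the Thbs3 row is negative throughout, down to -0.55.

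For 6 members the 3 genes with the most similar variation between mice were listed, by the r of log2 levels after subtraction of group means over 75 mice, among 13065 genes with a mean log2 CPM above 1. Tnc was closest to Sh3pxd2b (r = 0.94), an adaptor of invasive cell protrusions, Col5a1 (0.94), a fibril collagen chain, and Loxl2 (0.92), a collagen crosslinking enzyme. For Thbs1, Itga5 (0.86), the fibronectin receptor subunit, and Adamts1 (0.84), a matrix protease, were among the 3. Thbs4 was closest to Fmod (0.88) and Lum (0.83), small proteoglycans of collagen fibrils, and to the Wnt antagonist Dkk2 (0.82). Cthrc1 was closest to Serpine2 (0.88), a protease inhibitor, Itgb5 (0.86), an integrin subunit, and Dkk2 (0.85). Thbs3 had Zfp385b (0.85), Sema4f (0.80) and Plekhd1 (0.79) nearest, and Postn had Chn1 (0.66), Bace1 (0.60) and Mest (0.60). The nearest genes of Thbs3 had log2 fold changes of -0.85 for Zfp385b, -0.64 for Sema4f and -1.003 for Plekhd1 on day 14.

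Other matricellular genes went both ways. Of 21 listed genes 18 could be tested, the other 3 (Ccn6, Spock1 and Spock3) having at most 6, 4 and 14 counts in any library. On day 14, 11 were higher and 5 lower, where 62.4% of all genes were called, with a median log2 fold change of 0.83, and on day 42, 3 were higher and 4 lower, where 24.7% of all genes were called. The largest increases on day 14 were in 3 genes for phosphoproteins known from bone mineral. Spp1, osteopontin, went from 69.4 ± 31.7 CPM in CTRL (SD, n = 10) to 3413 ± 2483 on day 14 (n = 12, log2 fold change 5.62 ± 0.55, adjusted p = 7.36e-14). Dmp1 (6.06 ± 1.11, adjusted p = 3.16e-06) and Ibsp (3.31 ± 0.98, adjusted p = 0.00271) rose from 0.0104 ± 0.033 and 0.0271 ± 0.0628 CPM, close to no counts, to 1.36 ± 1.43 and 0.375 ± 0.287 CPM. The largest decreases were in Tnxb (-1.65 ± 0.25, adjusted p = 4.94e-08) and Tnr (-1.01 ± 0.30, adjusted p = 0.00309), both tenascins like Tnc, and in Vtn, vitronectin (-0.98 ± 0.13, adjusted p = 6.64e-10). Tnr was low, at 1.31 ± 0.38 CPM in CTRL and 0.64 ± 0.22 on day 14 (SD), with at most 23 counts in any library. Tnn, another listed tenascin, was not called on day 14 (0.36 ± 0.32, adjusted p = 0.334). Tnxb was at 265 ± 58.2 CPM in CTRL and 84.3 ± 29 on day 14, where Tnc was at 27.2 ± 8.98 and 465.8 ± 254 (SD, n = 10 and 12). It was lower on all 6 days, and Tnc was higher on all 6.

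Receptors of these proteins had small changes, mostly upward. All 19 listed receptor genes were tested, and on day 14, 13 were higher and 3 lower, with a median log2 fold change of 0.36, where 32.4% of all genes were higher and 29.9% lower. On day 42, 4 were higher and 2 lower, so that 6 of 19 were called, near the 24.7% of all genes called on that day. The fibronectin receptor subunit Itga5 rose most (1.45 ± 0.21, adjusted p = 1.77e-08), followed by Itgb6 (1.22 ± 0.16, adjusted p = 6.31e-10) and Itgb8 (1.12 ± 0.17, adjusted p = 8.56e-08), subunits of integrins that activate latent TGFβ. Itgb6 remained higher on day 42 (1.10 ± 0.17, adjusted p = 1.96e-06). The receptors that fell on day 14 were the integrin subunit Itga8 (-1.21 ± 0.15, adjusted p = 1.04e-10) and both classical thrombospondin receptors, Cd36 (-0.50 ± 0.10, adjusted p = 1.18e-05) and Cd47 (-0.41 ± 0.08, adjusted p = 1.30e-05). Cd36 was at 1629 ± 133 CPM in CTRL and 1153 ± 158 on day 14 (SD, n = 10 and 12), while Thbs1 went from 234 ± 85.1 to 1303 ± 971.

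The 8 listed genes of the collagen matrix, its processing and TGFβ rose together on day 14, with a median log2 fold change of 2.39. None of them overlapped with CTRL. Of all genes tested, 32.4% were higher on that day, and for 9.46% every mouse lay above all CTRL mice. Lox, a collagen crosslinking enzyme, was highest at 3.06 ± 0.34 (adjusted p = 6.34e-12), followed by the collagen chains Col5a1 at 2.91 ± 0.33 (adjusted p = 9.07e-12) and Col1a1 at 2.90 ± 0.33 (adjusted p = 2.36e-11). On day 42 Col3a1 (1.04 ± 0.20, adjusted p = 7.59e-05) and Bmp1 (0.40 ± 0.15, adjusted p = 0.0362) of the 8 were called, a share like the 24.7% of all genes. Col1a1 was then at 0.70 ± 0.35 (adjusted p = 0.133), next to 2.16 ± 0.40 for Tnc and 3.45 ± 0.84 for Thbs4.

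**Figure D5:**
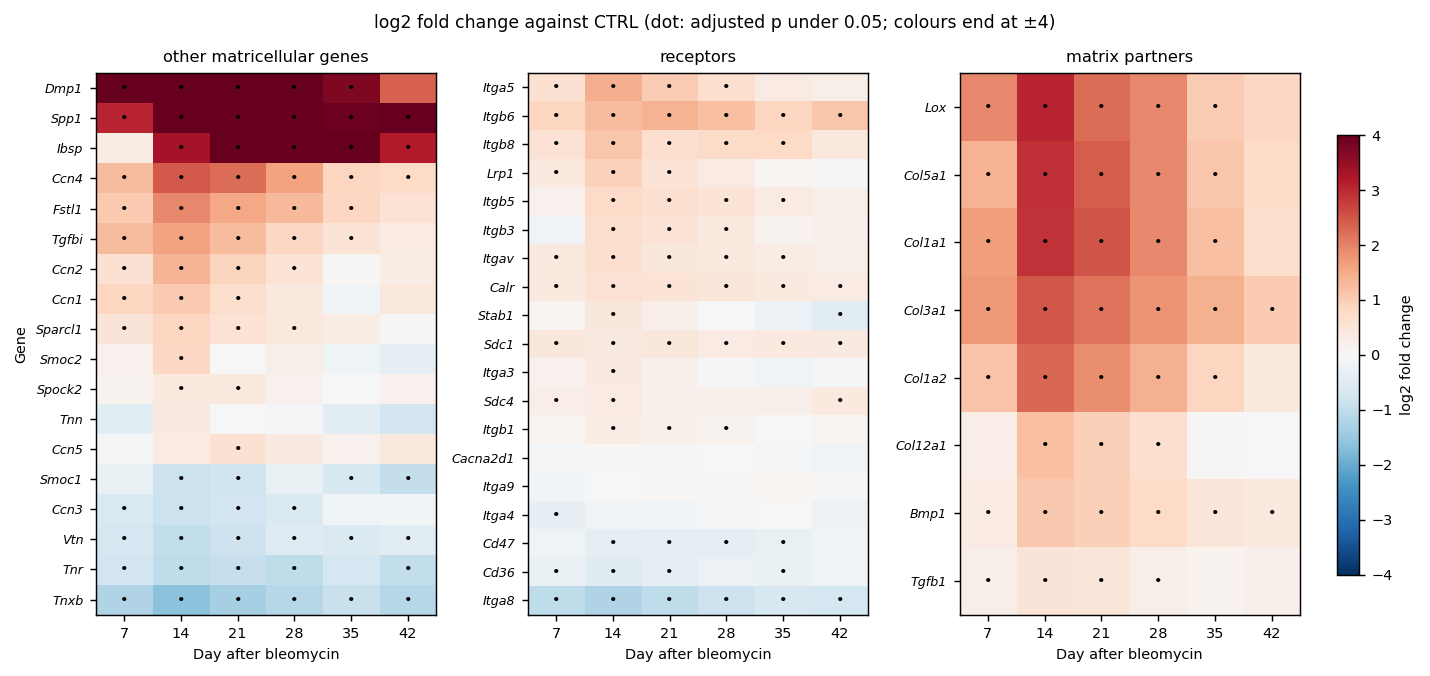
Log2 fold change against CTRL (colour, ends at ±4) by day (horizontal axis) for the tested genes (vertical axis) of 3 lists, ordered by their day 14 value; dots mark an adjusted p under 0.05. Spp1, Dmp1 and Ibsp stand out among the 18 matricellular genes, Itga8, Cd36 and Cd47 fell among the 19 receptors on day 14, and all 8 matrix partners rose on that day.

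Markers of cell types that can make these proteins moved as well, and their part in the results was not tested. On day 14, to which the counts below refer, 32.4% of all genes tested were higher and 29.9% lower. The lowest, median and highest sums of 8 macrophage markers were 355, 428 and 833 CPM in CTRL and 1046, 1336 and 2908 on day 14, when 7 of the 8 were higher. The sum of 9 fibroblast markers went from 3797, 4123 and 4669.7 to 2027, 2562 and 2909 CPM, with 4 genes higher and 4 lower on day 14. Most of this fall was in Inmt, whose median went from 1868 to 441 CPM, and in Npnt, from 1077 to 759 CPM. Tcf21, Dcn and Pi16 also had lower medians on day 14, while those of Pdgfra, Pdgfrb, Lum and Dpt were higher. In contractile cells the sum of 7 markers was 815, 918 and 1004 in CTRL and 790.1, 989.8 and 1789 on day 14, with 4 genes higher and 3 lower. Platelet and megakaryocyte markers, of interest because platelets store Thbs1, summed to 38.7, 54.8 and 77.2 in CTRL and 31.3, 36.7 and 49.4 on day 14, with none of the 7 higher and 5 lower. The 5 endothelial markers were 1 higher and 3 lower on day 14, and their sum was 3127, 3574 and 4397 and 2217, 3164 and 3741. Alveolar epithelial markers, which define the labelled tissue, were abundant in all mice and summed to 19626, 21243 and 23865 in CTRL and 6689, 13056 and 21373 on day 14, with 5 of 8 lower. The mesothelial sum was 98, 199.7 and 260.0 in CTRL and 196, 289 and 497 on day 14, with 1 of 5 genes higher.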

How the data were processed

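RNA was taken from the inferior lung lobe of 75 mice, made into directional poly(A) libraries and sequenced for 75 cycles. The deposited values are raw read counts per Ensembl gene, made by the authors, whose processing notes name STAR 2.7.0f and the GRCm38 (mm10) build. The counting tool and its strand setting are not given in the sources used here. Groups were taken from the sample labels. Counts were scaled with TMM, filtered with filterByExpr and fitted with the quasi-likelihood test of edgeR 4.0.16 (R 4.3.3) as 7 group means over all 75 mice, giving 21 pairs of groups, with Benjamini-Hochberg adjustment over 16221 genes and a threshold of 0.05. Standard errors were derived from the log2 fold change and its F statistic. Log2 CPM used a prior count of 2. Total counts were 9240291 to 14665247 per library. P-values measure the spread between mice, pooled over all 7 groups by the fit. Groups differed in spread, as for Thbs2 with an SD of log2 CPM of 0.24 in CTRL and 1.68 on day 28. The pooled spread can therefore be wider or narrower than that of the 2 groups compared. No 2 libraries of a group were alike within sampling noise (lowest chi-square per degree of freedom 3.88 over 375 pairs). Correlations were tested by two-sided permutation within groups (100000 resamples). All 10 members were named, with the 3 genes of largest change in each direction per list among those called on day 14, and the 3 genes most like each of 6 members, of which 1 is not reported here. The members and the lists were chosen with earlier results of these data known. Alternatives were DESeq2 1.42.0, other scalings and filters, only the groups compared, a replicate block, replicates 1 to 7, a log2 fold change of at least 0.5 and leaving out each mouse. The fit was tested on simulated data.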

Additional observations from a re-analysis of the deposited data

Results flagged for a closer look

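For each member in CTRL, on day 7 and on day 42 (7 to 10 mice) the highest and lowest mouse were compared with the rest, in 30 comparisons. Chance sets apart about 1 in 20 such comparisons where they are independent. These reuse the same mice and the members are correlated, so the number set apart cannot be held against that rate. On day 42 the highest mouse stood apart for Thbs1 at 733 CPM with the next at 506, for Thbs2 at 29.3 with the next at 11.7, for Comp at 2.51 with the next at 1.21 and for Cthrc1 at 18.5 with the next at 7.70. The highest Thbs2, Comp and Cthrc1 levels were in the same mouse, replicate 7, and that of Thbs1 was in replicate 1. On day 7 the highest Thbs4 mouse, replicate 1, was at 32.2 CPM with the next at 17.3.

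The change against CTRL differed between days 14 and 42 for 9 of the 10 members by the edgeR test of these days. The day 42 value minus the day 14 value was -3.77 for Thbs4 (adjusted p = 1.08e-06), -2.18 for Fn1 (adjusted p = 1.40e-05), -2.07 for Thbs2 (adjusted p = 0.00331), -1.94 for Tnc (adjusted p = 0.000196) and -1.70 for Cthrc1 (adjusted p = 0.00383). It was -1.47 for Thbs1 (adjusted p = 0.000333), -0.72 for Sparc (adjusted p = 9.19e-07) and -0.24 for Postn (adjusted p = 0.0217). Thbs3 went the other way, at 1.24 (adjusted p = 1.69e-07).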

How the results depend on the processing

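In the next count, leaving out each mouse entered only as the lowest and highest value of each change. Across the alternatives, 566 of 582 values of the 60 member changes against CTRL kept their direction and their side of the threshold. Of the rest, 6 lost a call, 6 gained one and 4 changed sign, none of them a called value. Further calls lost without 1 mouse, of Comp on day 42 and Postn on day 21, are given above and not counted here. Of the 6 gained, 5 were with only the groups compared and 1 with replicates 1 to 7. With only the groups compared, 7 members were called on day 7, 8 on day 35 and 7 on day 42. With 1 mouse left out Thbs3 on day 28 ranged from -0.116 to 0.0181, Postn on day 35 from -0.0190 to 0.0339 and Postn on day 42 from -0.0936 to 0.0164, and with replicates 1 to 7 Postn on day 42 was 0.0188. Comp lost its day 42 call with no filter (1.5001), with the replicate block (1.45) and with replicates 1 to 7 (1.37). The count of members called between days 14 and 21 was 1, and 0 with only the groups compared, 0 with replicates 1 to 7 and 0 to 1 with 1 mouse left out. Between days 28 and 35 it was 0, and 1 with DESeq2, 1 with replicates 1 to 7 and 0 to 2 with 1 mouse left out. On day 42, 7 other matricellular genes were called, and 13 with only the groups compared, 4 with replicates 1 to 7 and 4 to 8 with 1 mouse left out. Of the receptors, 16 were called on day 14 and 9 at a log2 fold change of at least 0.5, and on day 42, 6 were called, 11 with only the groups compared and 2 at that fold change. Of the matrix partners 2 were called on day 42, and 1 with no filter, 7 with only the groups compared, 1 with the replicate block, 1 at that fold change and 1 to 3 with 1 mouse left out. The causes were not tested. Per kb of the longest transcript the CTRL order of the members was the same, on day 14 Cthrc1 and Thbs4 changed places, and on days 28, 35 and 42 Thbs1 and Postn did. The filter of 10 counts in every mouse removed Thbs4 and Comp, and with only the groups compared Comp was tested against CTRL on day 21 alone. In that setting 49 of the 60 member changes were the same and 5 gained a call. The rest, not all of them of Comp, were not tested there. CTRL and BLEO-IPF mice with the same replicate number did not vary together (correlations of -0.17 to 0.26, medians near 0), so no pairing by number was seen. The BLEO-IPF days were not compared with each other in this way. With the replicate block 59 of 60 member changes kept their call. Depth limits the CTRL levels of Comp and Thbs4, which rest on 0 to 8 counts.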
